A study of Hordeum vulgare with 18 samples.

Results

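miR9863 is a microRNA family of barley and its relatives in the wheat tribe, and its members here are the small RNA sequences that the deposited tables name MIR9863. A sequence was taken as a member where its annotated name, read part by part, was MIR9863 with or without a letter. This rule found 15 sequences among the 7252 distinct sequences of the 3 tables. Of them, 9 were listed among 4750 sequences after 1 h, 9 among 4671 after 3 h and 12 among 4603 after 6 h, and 6 stood in all 3 tables. They held 1857 counts over 18 libraries. The members were matched by name, but the family itself was chosen on its heat against control counts in these same libraries, so the calls for it below describe it and are not independent evidence.

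The study asked how small RNAs of barley shoots change with the duration of high temperature. Plants were spring barley, line Rolap, 2 weeks old and grown at 21 °C by day. The heat groups were held at 35.5 °C for 1, 3 or 6 h, and each had a control group collected in parallel at 21 °C after the same time, with 3 biological replicates in each of the 6 groups. No genotype other than Rolap and no pathogen is named in the labels. Libraries were sequenced 9 to a lane, with both 1 h groups and heat 3 h on lane 1 and both 6 h groups and control 3 h on lane 2. At 3 h the lane and the temperature therefore cannot be told apart. The listed counts came to 1449374 to 3214221 per library, and 3 counts, taken as the detection floor, were worth 0.0678 to 0.129 RPM, the reads scaled to the whole library as deposited. These are whole shoots, so fewer cells making an RNA and less of it per cell cannot be told apart.

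MicroRNAs are cut as a duplex from a folded precursor transcript, and one strand, the mature sequence, guides an Argonaute protein to transcripts that pair with it. In barley, miR9863 is known to act on transcripts of a subset of Mla alleles, which encode nucleotide-binding leucine-rich repeat (NLR) immune receptors against the powdery mildew fungus. Plant microRNAs of 22 nt that act on NLR transcripts can also start the production of secondary, phased small RNAs from the cut transcript. The deposited tables hold small RNAs and no transcripts, so Mla itself was not analysed here.

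All 15 sequences carried the same annotation, the Aegilops tauschii precursors MIR9863a and MIR9863b together, matched with 0 mismatches, so reads of the a and b copies could not be separated. Only 1 of them was annotated as mature, from the 3′ arm, and the other 14 were annotated as precursor. The sequences the results turn on, and the most abundant ones of 20 and 21 nt, are given 5′ to 3′, with the seed at bases 2 to 8 in capitals.
22 nt mature sequence: tGAGAAGGtagatcataatagc
21 nt form of the mature sequence: gAGAAGGTagatcataatagc
18 nt precursor sequence: tCTGAAGActagtttatt
19 nt precursor sequence: tCTGAAGActagtttatta
20 nt precursor sequence: tCTGAAGActagtttattac
The 22 nt mature sequence had 659 counts, 35.5% of the family. Its 21 nt form begins 1 base later and so has another seed, and it had 30 counts. The 18, 19 and 20 nt precursor sequences share their first base, their seed and everything up to their last bases, and they had 780, 311 and 43 counts. The 18 nt sequence was the most abundant of the family, with 42.0% of its counts. Sequences that overlap the mature one by at least 10 bases made up 718 counts (38.7%), and those from the other stretch made up 1139 (61.3%).

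A single read joined the other stretch to bases that are complementary to the start of the mature sequence. It is shown with the complementary bases in capitals.
21 nt precursor read with 1 count: tgCTTCTCAtctgaagactag
Its positions 3 to 9 are the reverse complement of bases 1 to 7 of the mature sequence, and the 18 nt sequence starts right after them, at its position 10. The precursor and its fold were not analysed here, so the match is of letters only, in 1 read. The other 10 sequences, this read and shifted or extended forms among them, had between 1 and 9 counts each over all 18 libraries.

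By length, the family had 788 counts of 18 nt, 312 of 19 nt, 49 of 20 nt, 42 of 21 nt and 666 of 22 nt. The tables list nothing shorter than 18 nt, so shorter pieces of the same stretch were not analysed here. The family ranked 47 of 113 families by counts over the sequences listed in all 3 tables. The mature sequence ranked 55 of 338 among those of 22 nt. Scaled to the listed counts of a library, the family total lay between 28.7 and 95.2 CPM in the 18 libraries. Of the 15 sequences, 3 passed the filter on low counts at each duration, the 22 nt mature, the 18 nt and the 19 nt sequence, and the family total was tested beside them. At 6 h the mature sequence passed the filter through its high heat libraries, since the controls held 5, 12 and 2 counts. Its test there is thus descriptive.

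The mature sequence rose in heat at 6 h, and it did not pass the test at 1 h or 3 h. After 6 h its counts were 57, 69 and 81 in the heat libraries and 5, 12 and 2 in the controls, replicates 1 to 3 in each case. The heat libraries thus held 207 counts in all and the controls 19, and every heat library was far above every control. In RPM the heat libraries stood at 1.81, 2.68 and 2.86, with a mean of 2.45 ± 0.558 (SD, n = 3). The controls stood at 0.205, 0.433 and 0.0859, with a mean of 0.241 ± 0.177 (SD, n = 3). The third control was at or below the detection floor of 3 counts. The log2 fold change was 3.06 ± 0.55 (SE), with an adjusted p of 0.0117 over 675 sequences by edgeR's quasi-likelihood test. It was the fifth largest rise at that duration.

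At 6 h, 1 of the 3 tested miR9863 sequences was called, with 12.1% of all tested sequences called in either direction and 6.07% called higher. RPM ranges without overlap were found for 28.6% of all tested sequences there. The authors' deposited table gives this sequence a fold of 8.56 at 6 h, with an FDR of 8.04e-05. Leaving out control 6 h replicate 1 ended the call, with a log2 fold change of 2.93 and an adjusted p of 0.0561, and in each of the other 5 omissions it held.

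**Figure D1:**
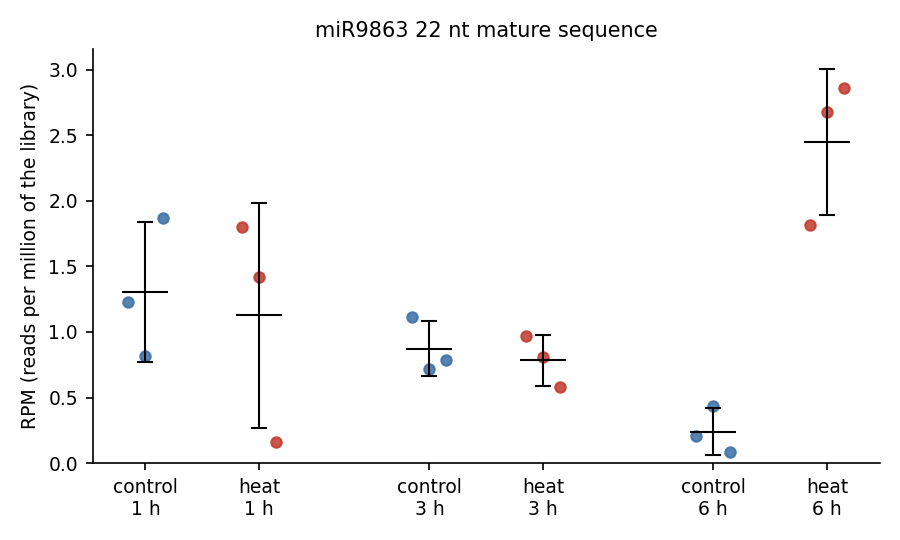
RPM of the 22 nt mature miR9863 sequence in each library (points, 3 per group, control in blue and heat in red) with the group mean and SD (black). The heat 6 h libraries lie between 1.81 and 2.86 RPM and the control 6 h libraries between 0.0859 and 0.433, while heat and control overlap at 1 h and at 3 h.

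At 1 h the mature sequence had 71, 52 and 7 counts in heat and 40, 32 and 70 in the controls. The third heat library was lowest, at 0.158 RPM, with the other two at 1.80 and 1.42, and the controls ran from 0.815 to 1.87 RPM, so the groups overlapped. The means were 1.13 ± 0.860 in heat and 1.30 ± 0.532 in control (SD, n = 3), and the log2 fold change was -0.03 ± 0.63 (SE; adjusted p = 0.982, edgeR). Without that heat library it was 0.46, with an adjusted p of 0.789, and without control 1 h replicate 3 it was 0.33, with an adjusted p of 0.96.

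At 3 h the mature counts were 34, 25 and 16 in heat and 36, 23 and 27 in control. These groups overlapped, with means of 0.784 ± 0.195 and 0.873 ± 0.212 RPM (SD, n = 3). The log2 fold change was -0.24 ± 0.41 (SE; adjusted p = 0.762, edgeR). It turned to 0.059 without control 3 h replicate 1 and to 0.0059 without heat 3 h replicate 3. Of the 3 tested miR9863 sequences, 0 were called at 1 h, where 1.76% of all sequences were, and 0 at 3 h, where 4.35% were. At an unadjusted p under 0.05 edgeR counted 0 of them at 1 h and 1 at 3 h, and DESeq2 called 0 at both durations. Over all sequences these counts were 79 of 740 and 141 of 713 at an unadjusted p under 0.05, and 21 and 54 by DESeq2.

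Across the 6 groups the mature sequence was lowest in control 6 h, followed by heat 3 h, control 3 h, heat 1 h, control 1 h and heat 6 h. The ranges of control 6 h and heat 3 h, at 0.0859 to 0.433 and 0.578 to 0.966 RPM, did not overlap, as was so for 26.7% of the 961 sequences, and these groups were on different lanes. All other neighbours in that order overlapped, among them heat 6 h and control 1 h, whose highest library reached 1.87 RPM. The difference at 6 h thus had a high heat group on one side and the lowest control group on the other. Within lane 2, the mature sequence was lower in control 6 h than in control 3 h by a log2 difference of -1.86 ± 0.69 (SE), with an unadjusted p of 0.0138 and an adjusted p of 0.765 by edgeR. Heat 6 h against control 3 h, also within lane 2, gave 1.28 ± 0.59 (SE; adjusted p = 0.205, edgeR). Neither of these within-lane differences passed the threshold. In the first, edgeR called 0 of 961 sequences, with 57 at an unadjusted p under 0.05, and in the second 8.01% of all sequences were called.

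Over 1 h and 6 h together, where heat and control shared a lane, the mean heat effect on the mature sequence in the fit of all 18 libraries was 1.51 ± 0.45 on the log2 scale (SE; adjusted p = 0.0375, edgeR). There 8.12% of the 961 sequences were called. That call was lost in 7 of 18 omissions of a single library, with adjusted p-values from 0.0779 to 0.131 in those. Subtracting the 1 h effect from the 6 h effect gave 3.25 ± 0.89 (SE), with an unadjusted p of 0.00162 and an adjusted p of 0.194 by edgeR, so a difference between the durations was not shown. For that contrast edgeR called 0 of 961 sequences, with 84 at an unadjusted p under 0.05, and DESeq2 called 5.

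**Figure D2:**
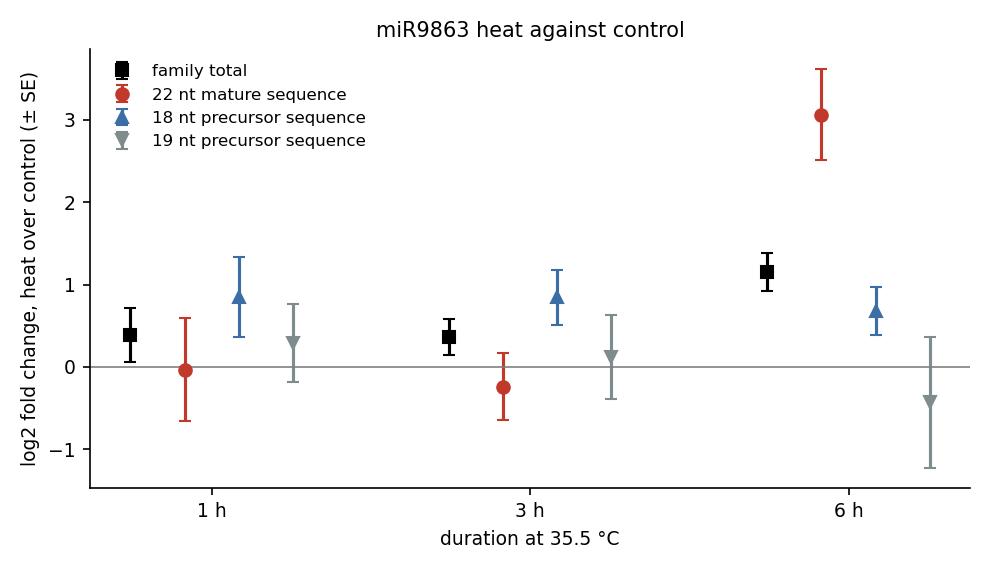
Log2 fold change of heat over control (points, with the SE as bars) at 1, 3 and 6 h for the miR9863 family total and the 3 sequences tested at each duration. The mature sequence moves from -0.03 and -0.24 at the shorter durations to 3.06 at 6 h, while the 18 nt precursor sequence stays between 0.68 and 0.85.

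The 18 nt precursor sequence, from the other stretch, had higher mean levels in heat at all 3 durations, and no single duration passed the test. At 1 h its counts were 57, 49 and 57 in heat and 8, 51 and 43 in control. The heat libraries lay within 1.29 to 1.45 RPM, and the groups overlapped, since control 1 h replicate 2 stood at 1.30 RPM. On the TMM-scaled CPM of the test the ranges were 21.5 to 22.3 in heat and 3.5 to 16.4 in control. The share of all sequences set apart on that scale was not computed, so no result is drawn from these ranges. Control 1 h replicate 1 was far lower than the other libraries, at 0.245 RPM. The log2 fold change was 0.85 ± 0.49 (SE; adjusted p = 0.624, edgeR), and it was 0.40 at the lowest of the 6 omissions of a library.

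At 3 h the 18 nt counts were 70, 57 and 43 in heat and 24, 40 and 30 in control. Every heat library, from 1.55 to 1.99 RPM, was above every control, from 0.743 to 1.25 RPM, with the lanes differing as said. At 6 h the counts were 59, 65 and 48 in heat and 21, 30 and 28 in control. Again every heat library, from 1.69 to 2.52 RPM, was above every control, from 0.860 to 1.20 RPM. Every heat library above every control was also found for 12.8% of all tested sequences at 3 h and for 20.1% at 6 h, in RPM. The log2 fold change was 0.84 ± 0.33 after 3 h (SE; adjusted p = 0.198, edgeR). After 6 h it was 0.68 ± 0.29 (SE; adjusted p = 0.174, edgeR).

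Averaged over 1, 3 and 6 h, the 18 nt sequence rose by 0.81 ± 0.23 on the log2 scale (SE; adjusted p = 0.0181, edgeR), in a contrast where 15.1% of sequences were called. Leaving out heat 3 h replicate 1 or control 6 h replicate 1 ended that call, with adjusted p-values of 0.0557 and 0.0508. The average over 1, 3 and 6 h takes in 3 h, where lane and temperature cannot be told apart. Over 1 h and 6 h alone the 18 nt sequence gave 0.76 ± 0.28 (SE), with an adjusted p of 0.115 by edgeR. The 6 h effect less the 1 h effect was -0.03 ± 0.55 (SE; adjusted p = 0.999). The mature sequence, averaged over all 3 durations, gave 0.94 ± 0.36 (SE) with an adjusted p of 0.0877, and it passed, at 0.011 with a value of 1.12, once heat 1 h replicate 3 was left out.

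**Figure D3:**
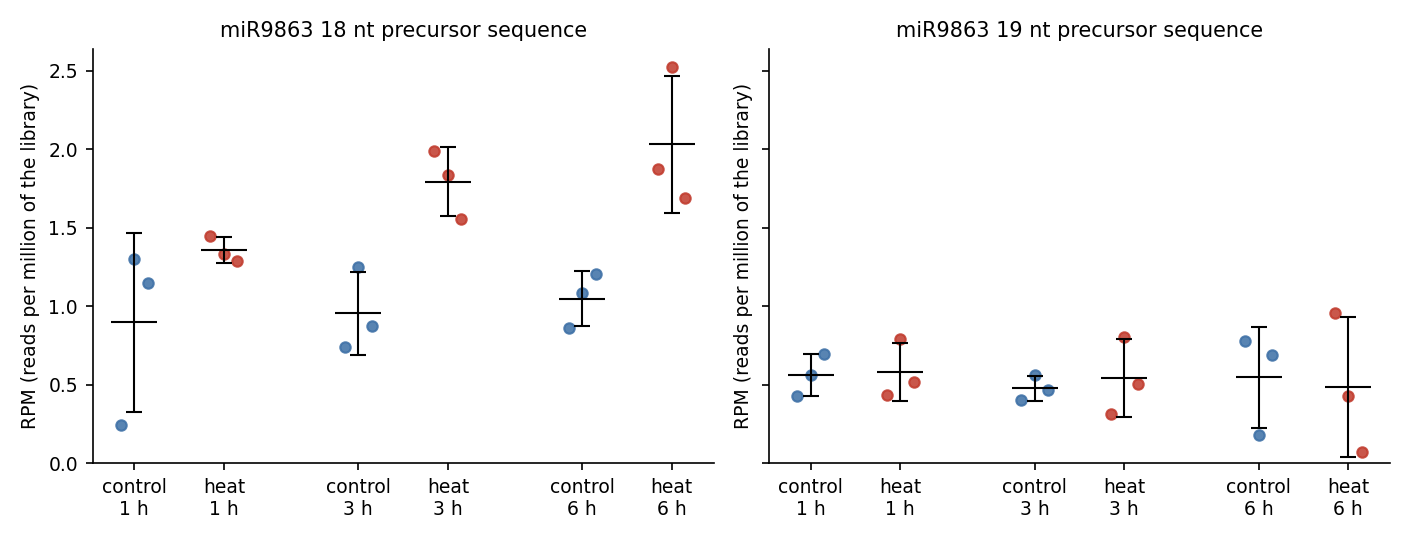
RPM of the 18 nt (left) and 19 nt (right) miR9863 precursor sequences in each library (points, 3 per group, control in blue and heat in red) with the group mean and SD (black). For the 18 nt sequence all heat libraries lie above all controls at 3 h and at 6 h, and for the 19 nt sequence the groups overlap at every duration.

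The 19 nt sequence, which carries 1 base more at its 3′ end, gave overlapping groups at each duration. After 1 h its mean level was 0.580 ± 0.186 RPM in heat and 0.561 ± 0.133 RPM in control (SD, n = 3). After 3 h it was 0.542 ± 0.249 RPM in heat and 0.477 ± 0.0808 RPM in control (SD, n = 3). At 6 h its counts were 30, 11 and 2 in heat and 19, 5 and 16 in control. Levels spread most in these last groups, from 0.0705 to 0.955 RPM in heat and from 0.181 to 0.778 in control. The log2 fold changes were 0.29 ± 0.47, 0.12 ± 0.51 and -0.43 ± 0.79 in order of duration, with SE and with adjusted p-values by edgeR of 0.902, 0.919 and 0.766. The value at 3 h turned to -0.29 without heat 3 h replicate 2, and that at 6 h to 0.0055 without heat 6 h replicate 3.

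The rarer forms did not pass the filter on low counts and got no test. The 20 nt sequence had 16 of its 43 counts in heat 3 h replicate 2, 8 in control 6 h replicate 3 and at most 5 in any other library. The 21 nt form of the mature sequence had 9 of its 30 counts in control 3 h replicate 1. It had 2 counts in each heat 6 h library and 0, 1 and 0 in the controls, all within the floor of 3 counts.

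The family total, which includes the mature sequence, rose at 6 h. Its counts were 163, 149 and 138 in heat and 47, 50 and 54 in control, which is 5.28 ± 0.466 and 2.02 ± 0.269 RPM (SD, n = 3). Every heat library, from 4.87 to 5.79 RPM, was above every control, from 1.81 to 2.32 RPM. The highest library outside heat 6 h reached 3.97 RPM, in heat 3 h, which was on the other lane. The share of all families set apart from every other group was not computed, so no result is drawn from that. Heat and control RPM did not overlap for 18.9% of all families at 6 h. The log2 fold change was 1.15 ± 0.23 (SE; adjusted p = 0.0225, edgeR), the fifth largest rise of 74 families, of which 16.2% were called in either direction and 9.46% called higher. The call did not hold without heat 6 h replicate 1 or without any one of the 3 controls, with adjusted p-values from 0.0542 to 0.127, nor with no filter on low counts, at 0.0506. At 6 h the mature sequence held 207 of the 450 family counts in heat and 19 of the 151 in control. Sequences from the other stretch, summed, overlapped there, at 1.90 to 2.99 RPM in heat and 1.30 to 2.23 RPM in control.

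At 1 h the family counts were 155, 136 and 90 in heat and 64, 107 and 147 in control. The groups overlapped almost fully, at 2.04 to 3.94 and 1.96 to 3.93 RPM, and the log2 fold change was 0.39 ± 0.32 (SE; adjusted p = 0.622, edgeR). At 3 h the counts were 115, 123 and 77 in heat and 86, 83 and 73 in control. The ranges, 2.78 to 3.97 and 2.12 to 2.66 RPM, did not overlap, as was so for 30.7% of all families at 3 h, but on the TMM-scaled CPM of the test they did, at 41.0 to 58.8 in heat and 31.1 to 44.8 in control. The log2 fold change was 0.36 ± 0.22 (SE; adjusted p = 0.352, edgeR). At 1 h, 0 of 74 families were called by edgeR, with 6 at an unadjusted p under 0.05 and 1 called by DESeq2, and at 3 h 2.67% were.

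In order of mean level the family total went from control 6 h through control 3 h, control 1 h, heat 1 h and heat 3 h to heat 6 h. The last step, between heat 3 h and heat 6 h, had no overlap, as was so for 17.6% of the 74 families, and it also crossed lanes, whereas control 6 h and control 3 h, control 3 h and control 1 h, control 1 h and heat 1 h, and heat 1 h and heat 3 h overlapped. Over 1 h and 6 h together the mean heat effect on the family was 0.75 ± 0.20 (SE; adjusted p = 0.0255, edgeR), with 9.46% of families called, and over all 3 durations it was 0.64 ± 0.16 (SE; adjusted p = 0.0127, edgeR), with 12.2% called. The first call was lost in 7 of 18 omissions of a library, and the second held in all 18. The second takes in 3 h, where lane and temperature cannot be told apart. The 6 h effect less the 1 h effect was 0.88 ± 0.40 (SE; adjusted p = 0.398, edgeR), with 1.35% of families called, so the durations were not shown to differ. Within lane 2, heat 6 h against control 3 h gave 0.84 ± 0.28 (SE; adjusted p = 0.0712, edgeR), where 6.76% of families were called, and control 6 h against control 3 h gave -0.35 ± 0.29 (SE; adjusted p = 0.767).

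The makeup of the family also differed between libraries. At 6 h the mature sequence made up 35% of the family counts in heat replicate 1 (95% Wilson interval 28.1 to 42.6%), 46.3% in replicate 2 (38.5 to 54.3%) and 58.7% in replicate 3 (50.4 to 66.6%). In the controls it made up 10.6% (4.63 to 22.6%), 24% (14.3 to 37.4%) and 3.70% (1.02 to 12.5%). These groups did not overlap, and the difference was 33.9 percentage points. An exact two-sided permutation test gave p = 0.1, the smallest that 3 against 3 allows, and 0.375 after adjustment over the 15 tests of shares. The intervals cover counting error only, since the reads carry no stated molecular identifiers.

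At 1 h the mean share was lower in heat, at 30.6% against 46.7%, with a heat replicate at 7.78% and the other two at 45.8 and 38.2%. The controls ran from 29.9 to 62.5%, so the groups overlapped (exact permutation p = 0.4). At 3 h the shares were 29.6, 20.3 and 20.8% in heat and 41.9, 27.7 and 37.0% in control, which overlapped at their edges (exact permutation p = 0.2). Pooled over 1 h and 6 h the difference was 8.90 points, with an exact permutation p of 0.455 and an adjusted p of 0.62.

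**Figure D4:**
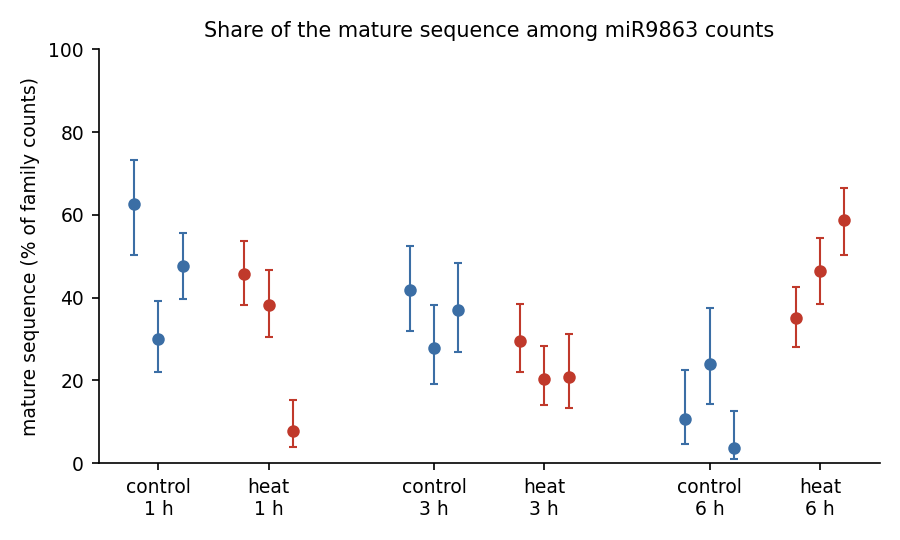
Share of the 22 nt mature sequence among all miR9863 counts of a library, in percent, with its 95% Wilson interval (bars, counting error only), control in blue and heat in red. At 6 h the heat libraries lie between 35 and 58.7% and the controls between 3.70 and 24%, whereas heat 1 h holds a library at 7.78%.

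The 18, 19 and 20 nt sequences share the seed CTGAAGA. With the mature sequence they hold most of the family counts. The share of this seed therefore falls largely by arithmetic where the mature share rises, and it is no separate result. After 6 h the mean share of this seed was 48.8% in heat and 85.9% in control. At 3 h, with the lanes differing as said, it ran from 70.4 to 79.7% in heat and from 45.3 to 69.9% in control. Those ranges did not overlap (exact permutation p = 0.1, adjusted p = 0.375). Over 1 h and 6 h the difference was -10.9 points (exact permutation p = 0.395, adjusted p = 0.62). Among members of 21 and 22 nt, the 22 nt length took 70.0 to 100% in every library. After 1 h its mean was 85.8% in heat and 97.1% in control. The heat libraries there ran from 70.0 to 94.7% and the controls from 95.2 to 100%, without overlap. The exact permutation p was 0.1, the smallest that 3 against 3 allows, and 0.375 after adjustment. The lowest of them, heat 1 h replicate 3, rested on 7 of 10 counts. After 3 h the heat mean was 94.7% and the control mean 93.3%, and after 6 h they were 94.4% and 95.2%. Over 1 h and 6 h the difference was -6.02 points (exact permutation p = 0.255, adjusted p = 0.62), and no change of this length share was shown.

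Other microRNAs known to act on NLR transcripts (miR472, miR482, miR1507, miR2109, miR2118, miR5071, miR5300, miR6019 and miR6027) had almost no counts. They had 0 listed sequences at 1 h and at 6 h, and 2 sequences with 3 counts in all at 3 h. Of the other families known mainly from the wheat tribe (such as miR9662, miR9674, miR9773, miR9775, miR9777 and miR9779), 2 of 29 tested sequences were called higher and 0 lower at 6 h, where 6.07% of all sequences were called higher, and their median log2 fold change was 0.01 beside -0.00 over all sequences. The calls among them numbered 0 of 34 after 1 h and 0 of 30 after 3 h, where 1.76% and 4.35% of all sequences were called. The miR9863 medians over 3 sequences were 0.29, 0.12 and 0.68 in order of duration. Each was simply the value of 1 precursor sequence, and the tested precursor sequences share most of their bases. The family was also chosen on these same counts, so its medians are not compared with those of the lists. The wheat-tribe list was drawn by family number. Its family totals at 6 h included miR9779 at 0.67 ± 0.23 (adjusted p = 0.111), miR9775 at 0.15 ± 0.27 (adjusted p = 0.841) and miR9662 at -0.01 ± 0.11 (adjusted p = 0.997), with SE, by edgeR. They also included miR9668 at -0.69 ± 0.75 (adjusted p = 0.699), miR9674 at 0.14 ± 0.40 (adjusted p = 0.88), miR9777 at 0.02 ± 0.51 (adjusted p = 0.971) and miR9773 at 0.00 ± 1.13. None of them was called.

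Of the regulators of the silencing machinery itself (miR162, miR168 and miR403), 3 of 25 tested sequences were called higher and 1 lower at 6 h, beside 12.1% of all sequences in either direction. After 3 h 1 of 26 was called lower and 0 higher, where 4.35% of all sequences were called. Their median log2 fold change was -0.51, beside -0.08 over all sequences. After 1 h 0 of 28 were called, where 1.76% of all sequences were, with a median of -0.07 beside 0.07. The miR168 family, which acts on ARGONAUTE1 transcripts, gave 0.07 ± 0.19 at 1 h (SE; adjusted p = 0.856), -0.67 ± 0.30 at 3 h (SE; adjusted p = 0.239) and -0.08 ± 0.16 at 6 h (SE; adjusted p = 0.847), by edgeR. By length, 5 of 94 tested sequences of 22 nt were called higher and 4 lower at 6 h, with a median log2 fold change of -0.01, and 9 of 232 of 21 nt were called higher and 22 lower, with a median of -0.10. Both lists stood beside 12.1% called in either direction over all sequences.

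Over the 18 libraries the family totals that ran most alike with miR9863 were miR5083 (Pearson r = 0.673), miR165 (r = 0.621), which acts on HD-ZIP III transcription factor transcripts, and miR9779 (r = 0.608), out of 73 other families. The most opposed was miR399 (r = -0.828), a microRNA of phosphate homeostasis. Without control 3 h replicate 1 and heat 6 h replicate 2, which lay apart in earlier results, these were 0.710, 0.629, 0.590 and -0.838. The top 3 then changed, since miR160 reached 0.633, above miR165 and miR9779. Over all 18 libraries miR166 and miR5168, which also act on HD-ZIP III transcripts, gave r = -0.262 and -0.259. These values describe log2 CPM. All families in a library share its depth, scaling and lane, and these differ between libraries. The cause of the likeness was not tested.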

How the data were processed

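Small RNAs of 18 barley shoot libraries were counted by the authors per distinct sequence and annotated against plant microRNA precursors, per the file headers. The deposited counts are whole reads. The deposited normalized values are RPM and equal the count times 1 constant per library, from which library totals of 23280481 to 44219180 were computed. The authors' p-value, FDR and signed fold score stand in the deposited tables, per the file headers. The sources used here give no aligner, version or annotation release, and no genome was used.

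The members and lists were chosen with earlier results of these data known. Groups and lanes came from the labels, and replicates were numbered as listed.

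Each duration was fitted on its 6 libraries with edgeR 4.0.16 in R 4.3.3 (quasi-likelihood F test, TMM factors, filterByExpr with minimum count 10 and minimum total 15, Benjamini-Hochberg adjustment over all sequences, calls at an adjusted p under 0.05). Family totals were tested with the library sizes of the whole table. The SE given with an edgeR log2 fold change is its absolute value divided by the square root of the F statistic. The 2720 sequences in all 3 tables entered 1 fit of 18 libraries. Shares were tested by exact permutation within durations. The test was checked on simulated data with 200 changed sequences. Alternatives were DESeq2 1.42.0, its size factors in edgeR, implied library totals, other filters and leaving out each library.

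Named were sequences that passed the filter in a table, the most abundant of 20, 21 and 22 nt and of each match type, the family total, and the 3 families most like and the 1 least like it.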

Additional observations from a re-analysis of the deposited data

How the results depend on the processing

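With no filter on low counts the family total at 6 h gave 1.15 (log2; adjusted p = 0.0506) and its mean effect over 1 h and 6 h gave 0.75 (adjusted p = 0.0501), so that neither passed, whereas both did as reported. Leaving out 1 library at a time gave 1.02 to 1.29 for the first (adjusted p 0.0078 to 0.127) and 0.63 to 0.89 for the second (adjusted p 0.00573 to 0.0868). The number of miR9863 sequences called at 6 h was 0 or 1 over these omissions, and the mature sequence gave 2.67 to 3.85. Over the 6 other alternatives the mature sequence at 6 h gave 3.06 to 3.29 and passed in each. The family mean over 1, 3 and 6 h passed in all 23 alternatives, none of which can separate lane from temperature at 3 h.

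Of the values that were not called, 5 changed sign over the omissions. They ran from -0.55 to 0.46 for the mature sequence at 1 h and from -0.43 to 0.059 at 3 h. For the 19 nt sequence they ran from -0.29 to 0.39 at 3 h and from -1.48 to 0.0055 at 6 h. The 18 nt effect at 6 h minus 1 h ran from -0.37 to 0.32, and it was 0.37 with implied library totals. Mature results over 18 libraries, the 18 nt ones, the contrasts within a lane and the ranges in TMM-scaled CPM were added after seeing the data. The cause of these changes was not tested.

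Scaling by implied library totals moved the median of all sequences by -0.25 (log2) for the 1 h fit, 0.08 for the 3 h fit and 0.26 for the 6 h fit. No share test over 1 h and 6 h together passed in any alternative run. Share tests within 1 duration could not pass, since an exact permutation of 3 against 3 libraries allows no p under 0.1. The share of the 3′ arm gave no value, since the annotation names no 5′ arm sequence here. No paired analysis was possible because the labels give no pairing of heat and control plants. Counts of 2 to 12 in the control 6 h libraries limit the precision of the mature fold change.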
